A study of Rattus norvegicus with 6 samples.

Results

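The immediate early genes examined here are 10 rat genes, Fos (ENSRNOG00000008015), Jun (ENSRNOG00000026293), Junb (ENSRNOG00000042838), Egr1 (ENSRNOG00000019422), Egr2 (ENSRNOG00000000640), Egr3 (ENSRNOG00000017828), Arc (ENSRNOG00000043465), Nr4a1 (ENSRNOG00000007607), Npas4 (ENSRNOG00000020009) and Dusp1 (ENSRNOG00000003977), chosen by their Ensembl gene identifiers from the 26402 identifiers of the FPKM table (fragment counts scaled by transcript length and library total). They were followed in polyadenylated RNA from the superficial superior colliculus, the retinal target layers of the midbrain, of Sprague Dawley rats at postnatal day 20. Closed libraries came from rats whose eyelids were glued shut between postnatal days 14 and 20, and open libraries from rats with open eyes in that period. There were 3 libraries a group, 1 for each batch letter (A, B, C). The question addressed is how opening of the eyes bears on transcript levels in the visual layers. The labels name no genotype and no number of animals per library, so p-values reflect only the spread among these libraries, which may be technical. In bulk tissue, fewer cells expressing a gene and less RNA per cell cannot be told apart. The tables carry identifiers without symbols, so the tissue was not checked against cell type markers, and the genes other than these 10 that belong to the same response were not matched.

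Immediate early genes are transcribed within minutes of synaptic activity or growth factor signalling, without new protein synthesis, because the factors that switch them on are already present and are activated by calcium and MAP kinase signals. Many of them encode transcription factors that act on later genes, and others encode proteins that act at the synapse or that shut the signal off. Their transcripts are short-lived, and they are widely used in the visual system to mark recently active neurons.

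The 10 genes covered a wide range of abundance, with Jun the highest and Egr2 the lowest. Jun, a subunit of the AP-1 transcription factor, had a mean of 15.2 FPKM over the 6 libraries and lay between 14.5 and 15.8 FPKM. Egr1, a zinc finger factor often used as an activity marker, followed at 10.04 FPKM (8.52 to 10.9), and its range did not meet that of Jun. Dusp1, a phosphatase that inactivates MAP kinases, stood at 5.70 FPKM (4.33 to 7.24), below Egr1 in all 6 libraries. It was above Fos in all 6 as well, though their ranges over libraries overlapped. Fos, Arc, Nr4a1 and Junb formed a group between 2.65 and 3.54 FPKM whose neighbours overlapped. Fos, the AP-1 partner of Jun, was above Arc in only 3 of 6 libraries, so the order of Fos and Arc was not resolved. Egr3, Npas4 and Egr2 lay apart at 0.919, 0.223 and 0.0356 FPKM, each below the gene before it in all 6 libraries. A mean of at least 1 FPKM over the 6 libraries, the filter for the tests, was reached by 7 of the 10 genes, as by 12351 of the 26402 identifiers, and was missed by these 3.

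The read support of each gene, given as a mean normalized count in the authors' deposited table, set how much of its spread could be read. Egr1 had a mean count of 1082 and Jun one of 980.4, while Junb had 172.6, Egr3 59.9, Npas4 21.0 and Egr2 only 3.29. If such a count were the reads of 1 library, counting alone would give a relative SD of 3.04% for Egr1 and 55.1% for Egr2. The observed relative SD over the 6 FPKM values was 63.5% for Egr2 and 12.8% for Egr3, where counting alone would give 55.1% and 12.9%. Differences between libraries were therefore not detectable beyond counting error for Egr3 at this depth, and hardly so for Egr2. Jun had the smallest relative SD of the 10 genes in FPKM as deposited, 4.29% against 3.19% from counting. Dusp1 (20.1% against 5.003%), Arc (17.9% against 4.77%), Fos (15.8% against 6.72%) and Egr1 (8.99% against 3.04%) varied well beyond counting error. Nr4a1 (7.66% against 5.92%), Junb (9.001% against 7.61%) and Npas4 (30.5% against 21.8%) lay closer to it. All these spreads are of FPKM as deposited, where batch C was lower over all identifiers (median C minus A -0.21 on the log2 scale). They include that shift and were not recomputed after scaling. With median scaling, the log2 range of batch means went from 0.032 to 0.20 for Jun and from 0.44 to 0.24 for Arc.

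**Figure D1:**
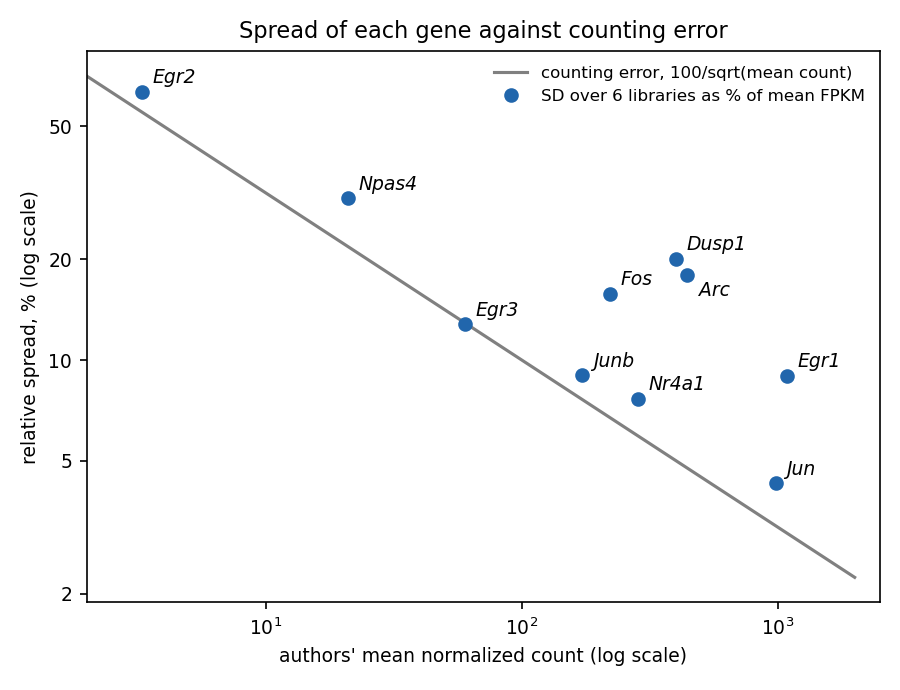
Relative SD of each gene over the 6 libraries, in FPKM as deposited (vertical, percent, log scale). The horizontal axis gives each gene's mean normalized count in the authors' deposited table (log scale). The line is what counting error alone would give. Dusp1, Arc, Fos and Egr1 stand farthest above the line, and Egr2 and Egr3 lie close to it.

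Promoter sequences from RefSeq (build GRCr8) were at hand for 6 of the 10 genes, Junb, Egr1, Egr2, Nr4a1, Npas4 and Dusp1. In each, the 250 bases before the annotated start were searched on both strands for sequences through which calcium and MAP kinase signals are known to act. The TATA box TATAAA, a general promoter element, was searched for as well. Those of Dusp1 (the gene that varied most among those above 1 FPKM), of Nr4a1 (the gene whose profile was nearest to the others) and of Egr2 (the lowest gene) are printed 5′ to 3′ on the gene's strand. They lie at chr10:17184603-17184852 on the plus strand for Dusp1, at chr7:134259888-134260137 on the plus strand for Nr4a1 and at chr20:21054442-21054691 on the minus strand for Egr2. Capitals mark the CREB half-site TGACG or its complement CGTCA, the full cyclic AMP response element TGACGTCA, which contains overlapping half-sites, and the CArG box bound by serum response factor.
Dusp1: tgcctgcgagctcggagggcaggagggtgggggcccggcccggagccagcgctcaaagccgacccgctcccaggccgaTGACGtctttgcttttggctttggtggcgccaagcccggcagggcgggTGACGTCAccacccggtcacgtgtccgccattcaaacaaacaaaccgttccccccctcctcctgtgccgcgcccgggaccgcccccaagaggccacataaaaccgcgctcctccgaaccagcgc
Nr4a1: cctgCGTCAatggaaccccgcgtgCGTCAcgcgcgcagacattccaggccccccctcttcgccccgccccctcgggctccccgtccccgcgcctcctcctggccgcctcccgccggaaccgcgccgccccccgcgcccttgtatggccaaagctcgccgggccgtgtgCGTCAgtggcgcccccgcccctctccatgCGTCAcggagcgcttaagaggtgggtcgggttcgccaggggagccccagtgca
Egr2: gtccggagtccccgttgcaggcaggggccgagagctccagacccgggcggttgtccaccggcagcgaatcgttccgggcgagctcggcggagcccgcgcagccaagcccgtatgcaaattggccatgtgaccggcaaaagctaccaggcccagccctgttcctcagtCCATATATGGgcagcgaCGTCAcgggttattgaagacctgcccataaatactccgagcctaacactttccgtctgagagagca
The half-site TGACG was present in 5 of the 6 windows, all but that of Npas4, and in 18.2% of all 33469 RefSeq windows of this length. Nr4a1 held 4 half-sites, and Dusp1 held the only full TGACGTCA of the 6 windows, at -124 to -117, an element found in 1.59% of all windows. A CArG box was found in Egr1 and Egr2 and in 1.497% of all windows. The AP-1 letters TGACTCA or TGAGTCA were in none of the 6 windows (4.05% of all), the EGR letters GCGTGGGCG or GCGGGGGCG in that of Nr4a1 alone (2.85% of all), and TATAAA in that of Junb alone (12.9% of all). A match of letters is a description of the window and not evidence of binding, and no match says only that these letters are not in it.

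None of the 7 tested genes was called between closed and open eyes. In limma on log2(FPKM + 0.5), 0 of 7 had an adjusted p under 0.05, as did 0% of the 12351 identifiers, and 0 of 7 had an unadjusted p under 0.05, against 0.542% of all. With batch as a block, 0 of 7 passed the adjusted threshold (0.0081% of all) and 1, Egr1, had an unadjusted p under 0.05 (6.32% of all). With 3 libraries against 3, an exact permutation test of 1 gene cannot go below 0.1 without pairing, or below 0.25 with pairing by batch. The 3 genes under the filter were tested only when the filter was lifted, and none of them was called either.

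Egr1 was the only one of the 10 genes whose closed and open libraries did not overlap. With eyes closed it read 9.62, 8.52 and 9.90 FPKM in batches A, B and C, and with eyes open 10.9, 10.8 and 10.5 FPKM. Every closed library thus lay below every open library, which was the case for 2.21% of all identifiers tested. It follows that the closed library was below the open one in each batch, a pattern shown by 1 of the 7 tested genes and by 19.5% of all identifiers. The means were 9.35 ± 0.730 FPKM closed and 10.7 ± 0.248 FPKM open (SD over 3 libraries each; two-sided exact permutation p = 0.1, the smallest possible). The limma difference was -0.19 on the log2 scale (SE 0.11, adjusted p = 1, and 0.781 with the block), with a 95% interval of the closed-to-open fold from 0.733 to 1.04. The authors' deposited table gave Egr1 a log2 fold of -0.16, closed over open, with p = 0.0376 and an adjusted p of 1. Of the 10 genes it was the 1 with an unadjusted p under 0.05 there, against 2.4% of all identifiers with a p-value. The deposited comparison uses the libraries of the FPKM table and is no second measurement.

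The other EGR genes gave no such separation. Egr3, which acts on the same DNA element as Egr1, had 0.758, 0.991 and 1.03 FPKM in closed batches A, B and C and 0.910, 1.03 and 0.800 FPKM in the open ones. The groups overlapped throughout, at 0.926 ± 0.147 and 0.913 ± 0.114 FPKM (SD, n = 3 each). Egr2, which besides its activity response is known for its role in hindbrain patterning and myelination, was at 0.0338, 0.0450 and 0.0225 FPKM closed and 0.0134, 0.0760 and 0.0228 FPKM open. The lowest and the highest of its 6 values were both open libraries.

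Among the AP-1 subunits, Fos was marked by a single high library. Fos read 3.53, 3.59 and 3.001 FPKM in closed batches A, B and C and 4.59, 3.26 and 3.25 FPKM in the open ones. The open library of batch A stood above all others, and in batch B the closed library was the higher. The limma log2 difference of closed from open was -0.10 (SE 0.16, adjusted p = 1) and became 0.042 without the open library of batch A. Its 95% interval allowed a closed-to-open fold from 0.725 to 1.19, and from 0.790 to 1.10 with the block.

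Jun showed almost no difference in FPKM, at 14.5, 15.1 and 15.8 FPKM closed against 15.7, 15.8 and 14.5 FPKM open in batches A, B and C. Its groups overlapped fully, and the log2 difference was -0.019 (SE 0.11), which became 0.014 when all libraries were set to the same median, 0.011 without the closed library of batch A and 0.0044 without the open library of batch B. Junb, a related subunit that can stand in for Jun in AP-1 and often restrains it, had 2.295, 2.52 and 2.70 FPKM closed and 2.89, 2.93 and 2.58 FPKM open. It was lower with eyes closed in batches A and B and slightly higher in C, with a log2 difference of -0.13 (SE 0.12, adjusted p = 1) and group means of 2.51 ± 0.203 and 2.80 ± 0.193 FPKM (SD, n = 3 each).

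Of the remaining transcription factors, Nr4a1, an orphan nuclear receptor, stood at 2.61, 3.02 and 2.70 FPKM closed and 3.04, 3.05 and 2.62 FPKM open in batches A, B and C. The closed library differed from the open one by -0.19 in batch A, -0.012 in B and 0.035 in C on the log2 scale, and the fitted difference was -0.054 (SE 0.12, adjusted p = 1), with values from -0.12 to -0.018 when single libraries were left out. Npas4, a neuronal factor induced by calcium entry, had 0.157, 0.227 and 0.228 FPKM closed and 0.223, 0.160 and 0.345 FPKM open. The direction changed between batches for Npas4, and its groups overlapped.

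Arc and Dusp1 encode no transcription factor. Arc, which acts at synapses in the removal of AMPA receptors, read 3.55, 3.62 and 2.80 FPKM closed and 4.10, 3.95 and 2.58 FPKM open in batches A, B and C. Dusp1 read 5.23, 6.34 and 4.63 FPKM closed and 6.43, 7.24 and 4.33 FPKM open. In both genes the closed library was lower in batches A and B and higher in batch C, and both batch C libraries lay below the other 4. On the log2 scale, closed minus open was -0.064 for Arc (SE 0.18, adjusted p = 1) and -0.12 for Dusp1 (SE 0.20, adjusted p = 1). Neither direction was stable, since Arc became 0.040 without the open library of batch A, 0.016 without the open library of batch B and 0.039 without the closed library of batch C, and Dusp1 became 0.018 without the open library of batch B.

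**Figure D2:**
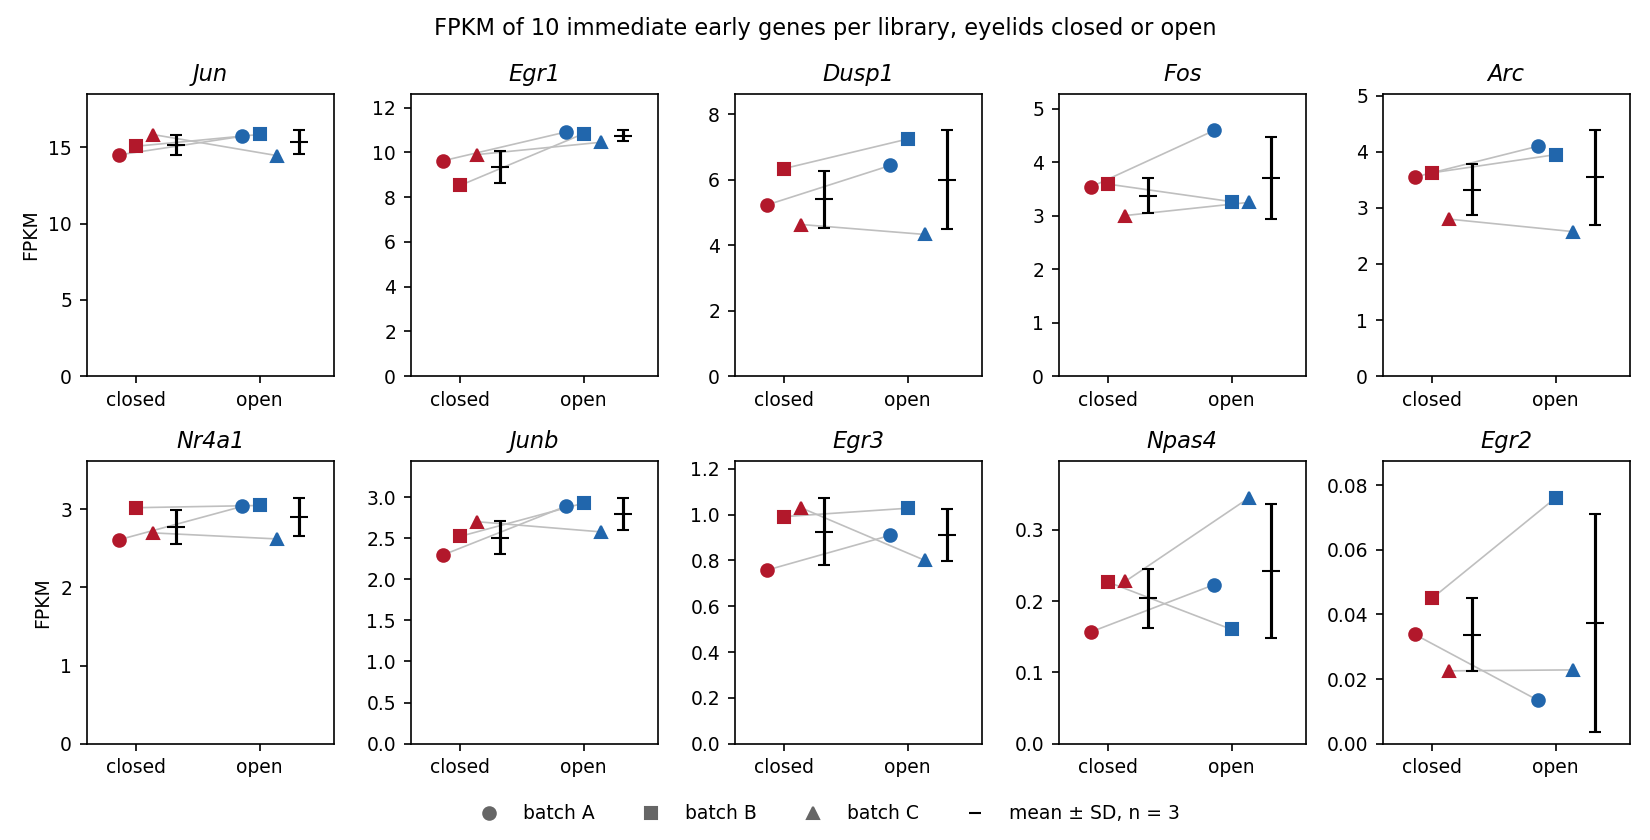
FPKM (vertical, from 0) of the 10 genes in each library, closed in red and open in blue, with the batch given by the symbol, libraries of a batch joined by a line, and the mean ± SD of 3 libraries in black. For Egr1 the closed points (8.52 to 9.90) lie below the open points (10.5 to 10.9), and in the other 9 genes the groups overlap.

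The batches did not give the same direction. In batch A the closed library was lower in 9 of the 10 genes, all but Egr2, in batch B in 8, all but Fos and Npas4, and in batch C in 4, Fos, Egr1, Egr2 and Npas4. Among the 7 tested genes these counts were 7, 6 and 2, beside 66.6%, 64.7% and 44% of all identifiers in batches A, B and C. As deposited, a lean in the same direction by batch was thus present over all identifiers. Jun, Junb, Arc, Nr4a1 and Dusp1 were lower with eyes closed in A and B and higher in C, which 27.4% of all identifiers were too. With all libraries scaled to a common median, the counts became 7, 5 and 2 of 7, beside 49.6%, 48.6% and 52.3% of all identifiers. Such scaling brings the identifiers as a whole near an even split by construction, and the counts of the 7 genes changed little. The 7 genes come from the same libraries and are not separate replicates, and with 1 library per group in a batch the difference between batches in the effect of eyelid closure was not tested.

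Intervals of the fold were computed for the 7 tested genes. With the block, the 95% interval of the closed-to-open fold was 0.779 to 0.983 for Egr1, 0.884 to 1.10 for Jun, 0.777 to 1.07 for Junb, 0.827 to 1.11 for Arc, 0.833 to 1.11 for Nr4a1 and 0.798 to 1.06 for Dusp1. Without it the widest was that of Dusp1, from 0.669 to 1.26. The SE of the log2 difference was smaller with the block than without it for each gene. With the block it was 0.10 for Fos and Junb, 0.070 for Jun, 0.074 for Egr1, 0.092 for Arc and Nr4a1 and 0.089 for Dusp1. These intervals are per gene and not adjusted for the number of genes. The median log2 difference of the 7 genes was -0.10, beside -0.034 over all identifiers tested, and after median scaling it was -0.072 beside -0.0015.

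**Figure D3:**
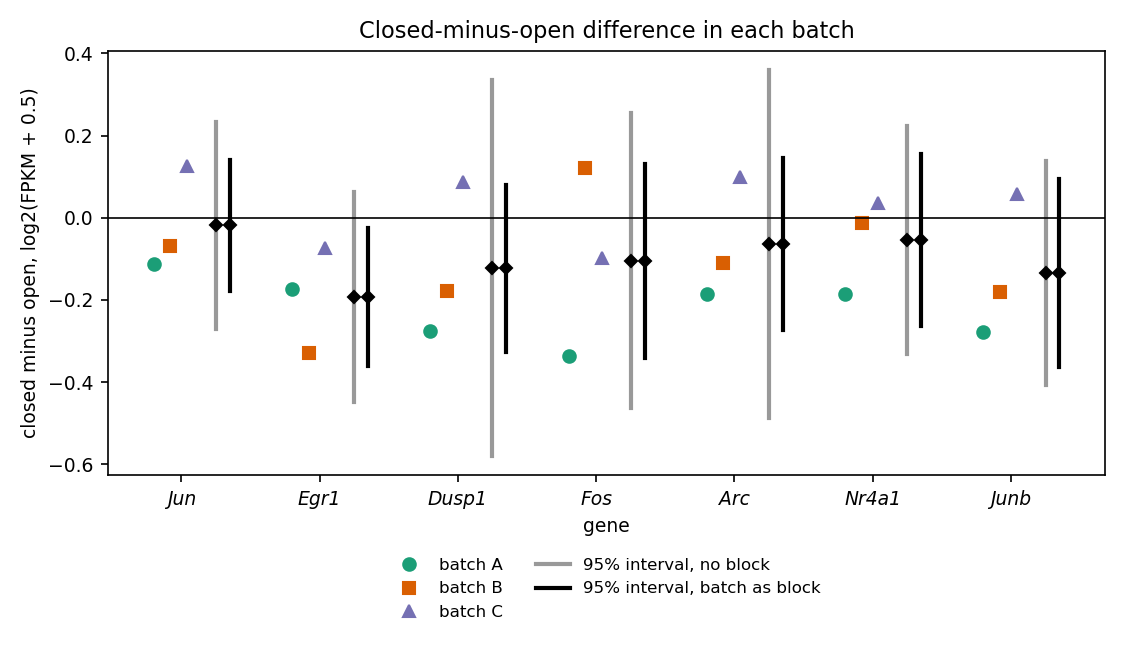
Closed-minus-open difference on the log2(FPKM + 0.5) scale in each batch (coloured symbols) for the 7 tested genes, with the fitted difference (black diamonds) and its 95% interval without (grey) and with (black) batch as a block. All 7 points of batch A lie below 0, and 5 of the 7 points of batch C lie above it; the interval of Egr1 with the block is the only one that leaves out 0.

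Between batches the 7 tested genes did not all shift in the same way. Arc, Dusp1 and Fos were lowest in batch C, where both libraries lay below the other 4, as for 51.7% of all identifiers. As deposited, the highest and lowest batch means were 0.032 apart on the log2 scale for Jun, 0.064 for Junb, 0.088 for Egr1 and 0.16 for Nr4a1, which was lowest in batch C. With libraries scaled to a common median these became 0.20, 0.22, 0.27 and 0.12, beside 0.24 for Arc, and none of them was called in limma (adjusted p = 0.0735 for Egr1). Batch C was the lowest of the 3 batch means for 4 of the 7 genes and for 69.4% of all identifiers. The FPKM of batch C were lower as a whole: the median difference over all identifiers was -0.21 for C minus A and -0.20 for C minus B on the log2 scale, and only -0.013 for B minus A.

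Arc and Dusp1 passed the test between batches. In limma with batch and eye condition, 2 of the 7 genes had an adjusted p under 0.05 in the F test of batch, beside 49.7% of all identifiers. Arc was lower in batch C than in A by a log2 difference of -0.44 (SE 0.11, adjusted p = 0.0142) and than in B by -0.43 (adjusted p = 0.0174). Dusp1 was lower in C than in A by -0.34 (SE 0.11, adjusted p = 0.0331) and than in B by -0.55 (adjusted p = 0.00596). No other of the 7 was called lower in C, where 40.5% of all identifiers were against A and 37.3% against B. Batches A and B differed in 0 of the 7 genes and in 3.37% of all identifiers.

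These calls rested on the scaling as deposited. With libraries scaled to a common median, 0 of 7 genes passed, beside 30.3% of all identifiers, with adjusted p of 0.136 for Arc and 0.0618 for Dusp1 in limma. Then Arc and Dusp1 still had their lowest mean in batch C, as did 40.5% of all identifiers, whereas Jun, Junb, Egr1 and Nr4a1 had their highest mean there. After this scaling, C minus A was -0.24 for Arc, -0.15 for Dusp1 and -0.13 for Fos, and 0.20 for Jun, 0.22 for Junb, 0.18 for Egr1 and 0.12 for Nr4a1. As deposited, the last 4 were 0.0026, 0.028, -0.010 and -0.070, so the direction of Egr1 and Nr4a1 depends on the scaling. The calls of both genes were also lost without the open library of batch C (adjusted p = 0.165 for Arc and 0.0875 for Dusp1), and that of Arc without the open library of batch A (adjusted p = 0.0554).

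**Figure D4:**
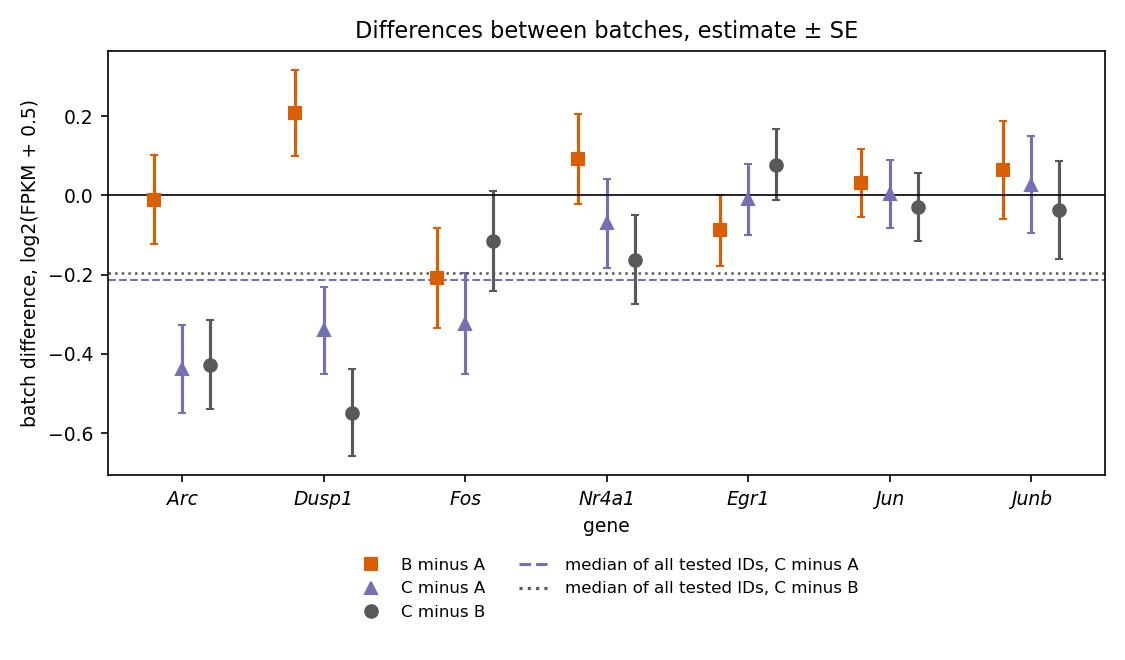
Differences between batches on the log2(FPKM + 0.5) scale for the 7 tested genes, as estimates ± SE from the model with batch and eye condition, ordered by C minus A. Broken lines mark the medians over all identifiers tested, -0.21 for C minus A and -0.20 for C minus B: Arc, Dusp1 and Fos lie below the first line, and Nr4a1, Egr1, Jun and Junb above it.

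The likeness of the profiles over the 6 libraries was measured as the root mean square distance between log2 values centred on each gene's mean. The closest of the 21 pairs were Jun and Junb at 0.0627, Jun and Nr4a1 at 0.0661, and Junb and Nr4a1 at 0.0779. Arc and Dusp1 were 0.0954 apart, and the most distant pair was Egr1 and Dusp1 at 0.265. Measured against the median profile of the other 6 genes, Nr4a1 was nearest, at 0.0478, with 1.27% of all identifiers nearer than it. For Jun and Junb 16.1% and 17.7% of identifiers were nearer, for Egr1 43.0%, for Fos 46.8%, for Arc 54.6% and for Dusp1 66.5%. By this distance the last 4 were no closer to the shared profile than many other identifiers. The distance counts the size of a gene's changes as well as their direction. A gene that follows the profile with larger changes therefore also lies far from it, and genes that change little lie near each other. Distances were computed on values as deposited only, so they include the lower FPKM of batch C, and were not repeated after scaling. Distances between pairs of other identifiers were not computed. The libraries share batch and scaling, so the likeness is a description. Among the identifiers outside the 10 genes, the nearest to their median profile were ENSRNOG00000015546 at a distance of 0.0169 and ENSRNOG00000009001 at 0.0188, whose symbols the tables do not give.

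In the authors' deposited table, 0 of the 10 genes were called at an adjusted p under 0.05, against 0.0344% of all identifiers. The deposited fold was below 0, lower with eyes closed, in 9 of the 10 genes, all but Egr2, and in 50% of all identifiers. These folds were -0.16 for Egr1 and Jun, -0.13 for Junb, -0.095 for Dusp1 and -0.084 for Arc. Nearer 0 were -0.053 for Nr4a1, -0.048 for Fos, -0.011 for Npas4 and -0.0069 for Egr3. Over all identifiers with a p-value, the median size of the deposited log2 fold was 0.026. How the folds were estimated is not stated. The closed-to-open ratio of mean FPKM of Npas4 was 0.839, so a deposited fold near 0 is not by itself a small difference in FPKM. Egr2 had 0.00037. The genes were measured in the same libraries, so the shared sign is no count of separate observations.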

How the data were processed

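Polyadenylated RNA of 6 libraries, 3 closed and 3 open, was sequenced, per the labels. Tools named in the submitters' processing notes are DESeq2 1.4.1, Cufflinks 2.1.1, STAR 2.3.14z and featureCounts 1.4.4, with build rn5. Their roles and the annotation are not stated there. The authors deposited FPKM values per library, which hold no depth. The authors also deposited their own comparison, with a signal column taken from its scale as the mean normalized count, a log2 fold, a p-value and an adjusted p-value. Its fold was turned to closed over open by its sign against FPKM (correlation -0.69 across 11147 identifiers with a count of at least 100). No source used here says whether batch was a term of that model.

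The gene names come with the list of identifiers. Members, lists and tests were chosen with earlier results of these data known. All 10 genes are named; the planned lists of related genes and of cell type markers could not be matched to identifiers and were not used, and of the identifiers nearest in profile at most 2 are named. limma 3.58.1 in R 4.3.3 was fitted on log2(FPKM + 0.5) over the 12351 identifiers with a mean of at least 1 FPKM, with trended and robust moderation, a threshold of 0.05 on two-sided p adjusted by Benjamini-Hochberg, without a batch term, and was tested on simulated data. A fold on this scale understates changes of low genes. Batch is a shared label and pairs the libraries (correlations of deviations from group means 0.361, 0.441 and 0.525 in batches A, B and C), so the paired fit is given beside the result. Exact permutation tests used scipy 1.17.1. Alternatives were other pseudocounts, filters, scalings and moderation, the batch block, and libraries or batches left out. Promoter windows came from RefSeq, build GRCr8, and no coordinate of another build was used.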

Additional observations from a re-analysis of the deposited data

How the results depend on the processing

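All alternatives were planned. The count of genes called between closed and open eyes stayed 0 in all 21 alternatives, the replicate block included, and in none of 143 values of single genes under them was an adjusted p under 0.05, the lowest being 0.371. The paired fit, with the replicate block, also made 0 calls, so the block changed none. The direction of Egr1 and Junb was the same in every alternative, with log2 differences from -0.25 to -0.12 and from -0.23 to -0.062. The difference changed sign in 18 of the 143 values, none of them above 0.042 in size. Jun became 0.011 with quantile scaling, 0.014 with median scaling, with or without the replicate block, 0.029 without batch A and 0.0070 without batch B, in both cases also with the block. Without batch A, Fos became 0.011 and Nr4a1 0.012, again with or without the block. Leaving out single libraries was done in the fit without the block, where it leaves the batches unbalanced between closed and open. It gave -0.060 to 0.011 for Jun, -0.25 to 0.040 for Arc, -0.18 to 0.042 for Fos, -0.32 to 0.018 for Dusp1 and -0.12 to -0.018 for Nr4a1. The count of genes called between batches, 2 as reported, was 1 with no filter, 1 with a filter of 5 FPKM, where Arc is not tested, 0 with quantile scaling and 0 with median scaling, and 0 to 2 when single libraries were left out. The authors' calls among the genes stayed 0 at an adjusted p of 0.1. Depth limits Egr2, Npas4 and Egr3, whose deposited mean counts are 3.29, 21.0 and 59.9.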

Other observations

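Jun differed between the tables from the same libraries. In FPKM its closed-minus-open difference was -0.019 on the log2 scale, with a direction that changed with the scaling, while the authors' deposited table gave a log2 fold of -0.16 with p = 0.0503 and an adjusted p of 1. For Egr1 the tables gave -0.19 and -0.16, for Junb -0.13 and -0.13, and for Arc -0.064 and -0.084. For Fos they gave -0.10 and -0.048, for Dusp1 -0.12 and -0.095, and for Nr4a1 -0.054 and -0.053. With the filter lifted, the values were 0.011 and -0.0069 for Egr3, -0.072 and -0.011 for Npas4, and -0.0082 and 0.00037 for Egr2. The measures are unlike, as the FPKM differences are on log2(FPKM + 0.5) and how the deposited folds were estimated is not stated. The difference between the tables was not tested.

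Egr1 and Egr2 shared the same letters at the same distance from their RefSeq starts. Both windows held the CArG box CCATATATGG at -83 to -74 and the half-site CGTCA at -66 to -62, and Egr1 held a further CArG box, CCATATTAGG, at -105 to -96. In the libraries, Egr1 was about 282-fold above Egr2 in mean FPKM, with open and closed libraries together. That ratio is imprecise, since Egr2 had a mean of 0.0356 FPKM, a relative SD of 63.5% and a deposited mean count of 3.29.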
